A study of Mus musculus with 2 samples.

Results

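Type 2 alveolar epithelial (AT2) cells were taken from 2 libraries of mouse lung cells by their own transcripts. A barcode was kept as a cell with at least 500 genes and at most 10% mitochondrial UMIs (unique molecular identifiers, each counting 1 captured RNA molecule). It was called an AT2 cell with at least 20 UMIs of Sftpb, Slc34a2, Napsa and Lamp3 summed, and at most 2 UMIs of the endothelial genes Pecam1 and Cdh5 and the fibroblast genes Col1a2 and Col3a1 summed. By this rule 445 of 4581 cells were AT2 cells, 19 in the library named Cherry_Positive and 426 in the one named Cherry_Negative.

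The cells came from mouse lungs taken 7 days after an intravenous injection of labelling 4T1 cells. The 4T1 line derives from a mammary tumour of the mouse and seeds the lung, and its labelling version is known to release a cell-penetrating mCherry protein that neighbouring cells take up. Cells without CD45, the surface protein of leukocytes, were sorted into those with mCherry (Cherry_Positive) and those without it (Cherry_Negative), and each sort gave 1 library. Both libraries share the tumour cell injection, and the labels used here give no number of animals and do not say whether these mice were irradiated. With 1 library a group there is no replicate check and no test: every difference is one between these 2 libraries, and every interval is a 95% interval that covers counting error only.

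AT2 cells are the cuboidal secretory cells of the alveolus. They make surfactant, the film of phospholipid and surfactant proteins that keeps alveoli from collapsing, and store it in lysosome-like lamellar bodies. They also secrete defence proteins such as lysozyme and act as progenitors of the flat type 1 (AT1) cells across which gas is exchanged. Mouse AT2 cells are known to carry MHC class II molecules, which elsewhere are mainly found on antigen-presenting leukocytes.

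The libraries held 1826 and 2861 barcodes, of which 1770 and 2811 were kept. AT2 cells had a median of 6485 UMIs (3090 to 26745) in Cherry_Positive and 8054 (1835 to 38812) in Cherry_Negative, with medians of 1776 and 1968 genes. Their UMIs summed to 143837 and 3506236, so the Cherry_Positive values rest on far fewer molecules. The libraries shared 13 cell barcodes, of which 1 was an AT2 cell in Cherry_Positive and 3 in Cherry_Negative. Levels are given in CPM, the UMIs of a gene per 1000000 UMIs of the summed cells or, where stated, of a single cell.

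AT2 cells made up 1.07% of kept cells in Cherry_Positive (19 of 1770, exact binomial interval 0.647 to 1.67) and 15.2% in Cherry_Negative (426 of 2811, 13.8 to 16.5). The share was 14.1 times higher in Cherry_Negative (8.93 to 23.7). AT1 cells, chosen by at least 10 UMIs of Ager, Rtkn2, Akap5 and Hopx summed, numbered 3 and 57. There were 6.33 AT2 cells for each AT1 cell in Cherry_Positive (1.86 to 33.4) and 7.47 in Cherry_Negative (5.66 to 10.04), and these intervals overlapped. For each endothelial cell there were 0.0880 AT2 cells in Cherry_Positive (0.0519 to 0.141) and 0.341 in Cherry_Negative (0.304 to 0.380). For each mesenchymal cell there were 0.0175 (0.0105 to 0.0274) and 0.901 (0.788 to 1.03). The sort sets these shares, and the labels do not say how many cells of each kind entered it.

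**Figure D1:**
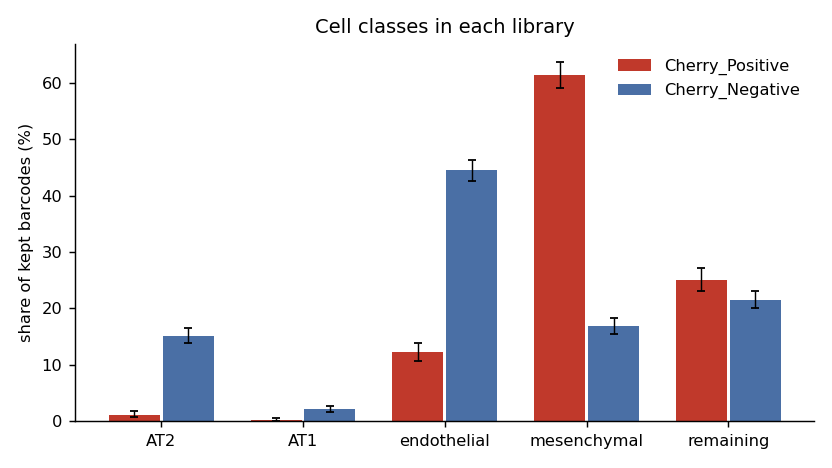
Share of kept barcodes (%) in each cell class, with red bars for Cherry_Positive, blue bars for Cherry_Negative and exact 95% binomial intervals. AT2 cells made up 1.07% and 15.2%, and mesenchymal cells 61.5% and 16.8%.

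Few cells lay near the limit on the marker genes. The sum of the 4 marker genes had a median of 122 in Cherry_Positive (lowest 47) and 123 in Cherry_Negative (lowest 21). No Cherry_Positive and 14 Cherry_Negative AT2 cells had sums of 20 to 39, and 1 and 2 kept cells just outside the rule had sums of 10 to 19. A further 3 and 24 cells reached the marker sum but held more than 2 endothelial or fibroblast UMIs. The limit on those UMIs lay closer to the members: 9 Cherry_Positive AT2 cells had 0, 9 had 1 and 1 had 2, against 306, 93 and 27 Cherry_Negative cells.

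Defining AT2 genes that the rule did not use were present in both groups. Sftpc, surfactant protein C (chr14:70520949-70524081, minus strand, mm10), had UMIs in 19 of 19 and 426 of 426 AT2 cells. Endothelial cells of the same libraries, which do not make it, held 157 and 1642 CPM of Sftpc, a measure of free RNA in the droplets. Cxcl15, a chemokine of lung epithelium, had UMIs in 19 of 19 and 423 of 426 AT2 cells, with 3.43 and 42.2 CPM in endothelial cells. Etv5, a transcription factor needed to maintain AT2 cells, had UMIs in 14 of 19 and 367 of 426 AT2 cells, with 5.72 and 9.58 CPM in endothelial cells.

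Genes of most other cell types were low. The 10 macrophage or monocyte genes summed to 6.95 CPM in Cherry_Positive, with 9 of them at 0, and to 9.13 CPM in Cherry_Negative. Ptprc, which encodes CD45, had 0 and 1 UMI. The 8 endothelial genes outside the rule summed to 264 and 300 CPM in AT2 cells, against 16713 CPM in Cherry_Negative endothelial cells. The 10 fibroblast genes summed to 716 and 411 CPM, against 35045 CPM in Cherry_Negative mesenchymal cells. The fibroblast sum was 1.74 times higher in Cherry_Positive (1.41 to 2.13), and 4 of 8 measured members had ratios above 1. Of these 8, Mgp, a matrix protein that inhibits calcification, had 56 UMIs in 17 cells and 188 UMIs in 146 cells, a ratio of 7.26 (5.29 to 9.83), and 6.17 without the deepest Cherry_Positive cell and the 2 Cherry_Negative cells described next. Mesenchymal cells held 15855 and 8618 CPM of Mgp, and endothelial cells 492 and 294 CPM. Calcrl, Icam2, Tcf21 and Col1a1 were at 0 UMIs in Cherry_Positive AT2 cells. The part of free or fibroblast RNA in differences between the libraries was not tested.

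A set of 3 cells that the rule called AT2 stood apart, and results that rest on them are given with and without them. The Cherry_Positive cell of most UMIs (26745 UMIs, 5086 genes) held 18.6% of its group's UMIs and had the lowest Sftpc level of the 19, 21163 CPM. It supplied 93.9% of the group's UMIs of Vim and 84.1% of those of Lgals1, both high in mesenchymal cells, and all 7 UMIs of Top2a, a gene of dividing cells. In Cherry_Negative, 2 cells held 16068 and 12319 UMIs of Scgb1a1, the main secretory protein of airway club cells, and 2937 and 1824 CPM of Sftpc. The next cell held 552 Scgb1a1 UMIs. The same 2 cells held 320 and 60 UMIs of Scgb3a2 and 157 and 97 of Cyp2f2, also club cell genes. They met the rule mainly through Sftpb, with 200 and 59 UMIs. Slc34a2 had 1 and 0 UMIs in them, Napsa 5 and 0, and Lamp3 0 and 1.

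Surfactant proteins were the most abundant products. Sftpc took 203974 CPM (201647 to 206322) in Cherry_Positive and 240600 CPM (240087 to 241114) in Cherry_Negative. Its lowest, median and highest single-cell levels were 21163, 246906 and 320248 CPM in Cherry_Positive and 1824, 257308 and 394417 CPM in Cherry_Negative. The ranges overlapped almost entirely, and the ratio was 0.848 (0.838 to 0.858). Without the 3 cells the levels were 245730 and 244797 CPM, with an interval of the ratio from 0.992 to 1.02.

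Sftpa1, a collectin that binds microbes and lipid (chr14:41131782-41136452, plus strand), stood at 21538 and 31613 CPM, a ratio of 0.681 (0.657 to 0.706). With the 3 cells left out it stood at 25561 and 32155 CPM, a ratio of 0.795. Single cells ran from 3034 through a median of 25700 to 52966 CPM in Cherry_Positive and from 196 through 31718 to 80253 CPM in Cherry_Negative, so the groups overlapped widely. Sftpd, the other surfactant collectin, stood at 4602 and 5779 CPM (ratio 0.796, and 0.936 without the 3 cells). Sftpb, which helps spread the film and belongs to the rule, stood at 9956 and 10390 CPM.

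Between the libraries a gene was counted as past the fold with a ratio of at least 2 or at most 0.5 and an interval off 1. Among all 9846 genes with at least 10 UMIs, 328 (3.33%) were past the fold upwards in Cherry_Positive and 71 (0.721%) downwards. Without the 3 cells these were 157 (1.61%) and 49 (0.503%) of 9740 genes. The median log2 ratio over all these genes was 0.26 (0.24 without the 3 cells), where 0.5 was added to counts from very unequal totals. With an added count in proportion to the totals it was 0.08, and list medians are read beside it.

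None of the 4 surfactant proteins was past the fold, and their median log2 ratio was -0.28 (-0.04 without the 3 cells). Sftpb is 1 of these 4 and was used to choose the cells, so its value is a description. None of the 13 measured genes of surfactant processing and lamellar bodies was past it either, with sums of 9420 and 9792 CPM and a median of -0.10. Abca3, which pumps phospholipid into lamellar bodies, stood at 535 and 495 CPM (ratio 1.08). The rule genes Slc34a2, a phosphate transporter, Napsa, a protease that matures surfactant proteins, and Lamp3, a lamellar body membrane protein, had ratios of 0.995, 0.916 and 0.788, given as a description.

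Of 24 measured genes of lipid synthesis none was past the fold (median 0.11, 0.27 without the 3 cells). Scd1, a fatty acid desaturase, stood at 2788 and 2170 CPM, a ratio of 1.28 (1.16 to 1.42) and 1.42 (1.27 to 1.57) without the 3 cells. Of 16 cholesterol synthesis genes 1 was past it, Sqle, squalene epoxidase, with 14 and 134 UMIs and a ratio of 2.55 (1.36 to 4.42). Of 16 AT2 transcription factors none was past it, and their median was -0.27 (-0.17 without the 3 cells). Etv5 stood at 209 and 314 CPM, a ratio of 0.665 (0.446 to 0.955) and 0.696 (0.452 to 1.02) without the 3 cells. Nkx2-1, the main regulator of lung epithelial identity, stood at 174 and 214 CPM.

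Of 17 measured innate defence genes 1 was past the fold upwards, Cd14, a receptor for bacterial lipopolysaccharide, and 1 downwards, Scgb1a1. Cd14 had 25 UMIs in 5 Cherry_Positive cells, of which 12 and 10 lay in 2 cells. Cxcl15 stood at 5409 and 6437 CPM (ratio 0.840, 0.781 to 0.903), with single cells from 692 to 14037 CPM in Cherry_Positive and from 0 to 19453 CPM in Cherry_Negative. Lcn2, which withholds iron from bacteria, stood at 2489 and 3421 CPM (ratio 0.727, and 0.877 without the 3 cells). Chil1, a chitinase-like secreted protein, stood at 2127 and 3019 CPM (ratio 0.705, and 0.832 without the 3 cells).

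None of the 8 MHC class II genes was past the fold, with a median of -0.50 (-0.29 without the 3 cells). Cd74, the invariant chain that escorts class II molecules, stood at 7210 and 7565 CPM. It had UMIs in 19 of 19 cells (1496 to 24732 CPM) and 423 of 426 cells (0 to 27637 CPM), with medians of 7219 and 7071 CPM. H2-Aa, a class II chain, stood at 939 and 1251 CPM (ratio 0.750), and H2-Eb1, another, at 473 and 713 CPM (ratio 0.663).

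**Figure D2:**
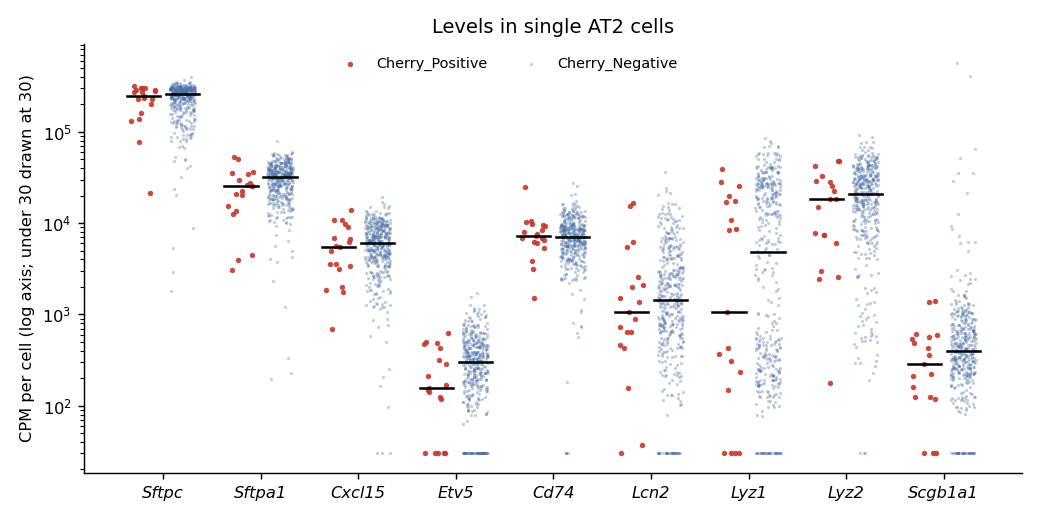
Level (CPM per cell, log axis, values under 30 drawn at 30) of 9 genes in single AT2 cells, red points for the 19 Cherry_Positive and blue points for the 426 Cherry_Negative cells, with black lines at the medians. The groups overlap for each gene, and Lyz1 splits the cells of both groups into a high and a low set.

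The type I interferon response genes had 2 of 16 measured members past the fold upwards and 1 downwards, with a median of 0.54 that came to -0.03 without the 3 cells. The interferon gamma response genes had 2 of 13 upwards, with a median of 0.92 that came to -0.23. The 2 were Cxcl9 and Cxcl10, chemokines that attract T cells. Cxcl10 had 11 UMIs in 7 Cherry_Positive cells and 15 UMIs in 9 Cherry_Negative cells, 76.5 against 4.28 CPM and a ratio of 17.9 (7.43 to 41.7), or 15.7 without the 3 cells. Cxcl9 had 6 UMIs in 4 cells and 5 UMIs in 4 cells, a ratio of 29.3 (7.44 to 121), or 23.5 without the 3 cells. Both were also higher in other cells of the Cherry_Positive library: Cxcl10 stood at 632 against 100 CPM in endothelial and 3233 against 202 CPM in mesenchymal cells, and Cxcl9 at 655 against 7.56 CPM in mesenchymal cells. The part of free RNA in the AT2 values was not tested.

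Isg15, a ubiquitin-like protein induced by interferon, had 27 and 274 UMIs (ratio 2.40, 1.55 to 3.57), but 74.1% of the 27 lay in 1 cell. All 17 Cherry_Positive UMIs of Bst2, a tether of budding virus, lay in the cell of most UMIs. With the 3 cells left out Bst2 had 0 UMIs against 316, and the interval of its ratio reached 0.346. Ccl2, a monocyte attractant, had 7 and 8 UMIs (ratio 21.3, 6.58 to 67.3), and stood at 88.0 against 7.25 CPM in endothelial cells.

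Across genes with at least 30 UMIs and 20 CPM, 226 of 5162 (4.38%) were past the fold upwards in Cherry_Positive and 71 (1.38%) downwards. Without the 3 cells these were 131 of 4740 (2.76%) and 49 (1.03%). The intervals are not adjusted over genes, so each tail nominally holds 2.5% of genes by counting error alone before the fold is asked for. The shares above also ask for the fold, so they cannot be set directly against that value. How many genes counting error alone would bring past the fold was not worked out, and the genes below are a description.

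Of the 12 genes named downwards in Cherry_Positive, 11 were past the fold, and 9 without the 3 cells. Gem, a small GTPase switched on early after stimulation (chr4:11704457-11714752, plus strand), had 0 UMIs in Cherry_Positive and 285 UMIs in 117 Cherry_Negative cells. The interval of its ratio reached 0.318 (0.383 without the 3 cells). Areg, an epidermal growth factor receptor ligand (chr5:91139599-91148432, plus strand), had 0 UMIs and 217 UMIs in 79 cells. The interval of its ratio reached 0.418 (0.507 without the 3 cells). Cxcl1, a neutrophil attractant (chr5:90891241-90893115, plus strand), had 9 UMIs in 4 cells and 717 UMIs in 128 cells, 62.6 against 204 CPM. Its ratio was 0.306 (0.139 to 0.584), and 0.123 (0.0254 to 0.362) without the 3 cells. Ptprb, a receptor tyrosine phosphatase best known from endothelium (chr10:116275523-116389535, plus strand), had 1 UMI and 394 UMIs in 238 cells, a ratio of 0.0619 (0.00156 to 0.347), and 0 UMIs without the 3 cells. It was also lower in Cherry_Positive endothelial cells (236 against 523 CPM) and mesenchymal cells (24.4 against 116 CPM).

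Depth was made equal by thinning each cell to 2000 UMIs, which kept 424 of 426 Cherry_Negative cells and all 19 Cherry_Positive ones. Areg then had a UMI in 35 of 424 Cherry_Negative cells (8.25%) and in 0 of 19 Cherry_Positive cells, where the exact binomial interval reaches 17.6%. Cxcl1 had one in 68 of 424 (16.0%) and in 0 of 19, with the same upper limit. Gem had one in 59 of 424 (13.9%) and in 0 of 19, again with that limit. For Areg, Cxcl1 and Gem a difference in share was not detectable at this number of cells. Ptprb had a UMI in 85 of 424 (20.05%, 16.3 to 24.2) and in 0 of 19 (up to 17.6%), and these intervals overlapped. Among endothelial cells Ptprb had a UMI in 55.4% of Cherry_Negative against 32.04% of Cherry_Positive cells. Before thinning, Areg was found in 18.5% of Cherry_Negative cells, and Cxcl1 in 128 of 426 Cherry_Negative and 4 of 19 Cherry_Positive cells.

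Saa3, an acute phase apolipoprotein, was found in a larger share of Cherry_Positive cells. It had a UMI in 6 of 19 thinned Cherry_Positive cells (31.6%) and 14 of 424 Cherry_Negative cells (3.30%). Its summed level was 104 CPM in Cherry_Positive and 127 CPM in Cherry_Negative, where 47.2% of the 447 UMIs lay in 1 cell. Thinned endothelial cells of the same libraries had it in 26.2% and 1.69%. Mt2, a metallothionein, had a UMI in 8 of 19 (42.1%) and 17 of 424 cells (4.01%), against 18.9% and 1.81% of endothelial cells. The part of free RNA was not tested.

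Scgb1a1 stood at 396 CPM in Cherry_Positive and 9170 CPM in Cherry_Negative, a ratio of 0.0432 (0.0327 to 0.0560), and the 2 cells rich in it held 88.3% of the Cherry_Negative UMIs. Without the 3 cells it stood at 436 and 1093 CPM, a ratio of 0.398 (0.296 to 0.525). Endothelial cells held 376 and 324 CPM, so the Cherry_Positive value lay near the level of free RNA. Another 11 Cherry_Negative cells had 50 to 1000 Scgb1a1 UMIs. Its direction rests on the marker limit: a sum of at least 10, which gives 20 and 428 cells, turned the ratio to 7.70, that of Scgb3a2 to 19.4 and that of Cyp2f2 to 1.62.

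Upwards in Cherry_Positive, all 12 genes named by the size of their interval bound were past the fold, and 9 without the 3 cells. When the choice was made again without the 3 cells, 2 of these 12 and 8 of the 12 downward genes were named again. In 3 of the 12 upward genes, most Cherry_Positive UMIs lay in the deepest cell. Odc1, the first enzyme of polyamine synthesis, had 32 and 122 UMIs and a ratio of 6.39 (4.19 to 9.50), which came to 2.70 without the 3 cells. Tmsb10, an actin-binding peptide, had a ratio of 2.55 (2.07 to 3.12) that came to 1.07, and Ccnd1, cyclin D1, one of 2.30 (1.76 to 2.95) that came to 1.06. Max, the partner of MYC proteins, kept its value, with 14 and 99 UMIs and ratios of 3.45 (1.82 to 6.06) and 3.57. Actb, cytoskeletal actin, stood at 4095 and 2156 CPM, a ratio of 1.90 (1.74 to 2.07) that was not past the fold, and at 4697 and 2179 CPM without the 3 cells, a ratio of 2.16 (1.97 to 2.35). It was also higher in Cherry_Positive endothelial cells (5562 against 3586 CPM) and mesenchymal cells (5134 against 3333 CPM).

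**Figure D3:**
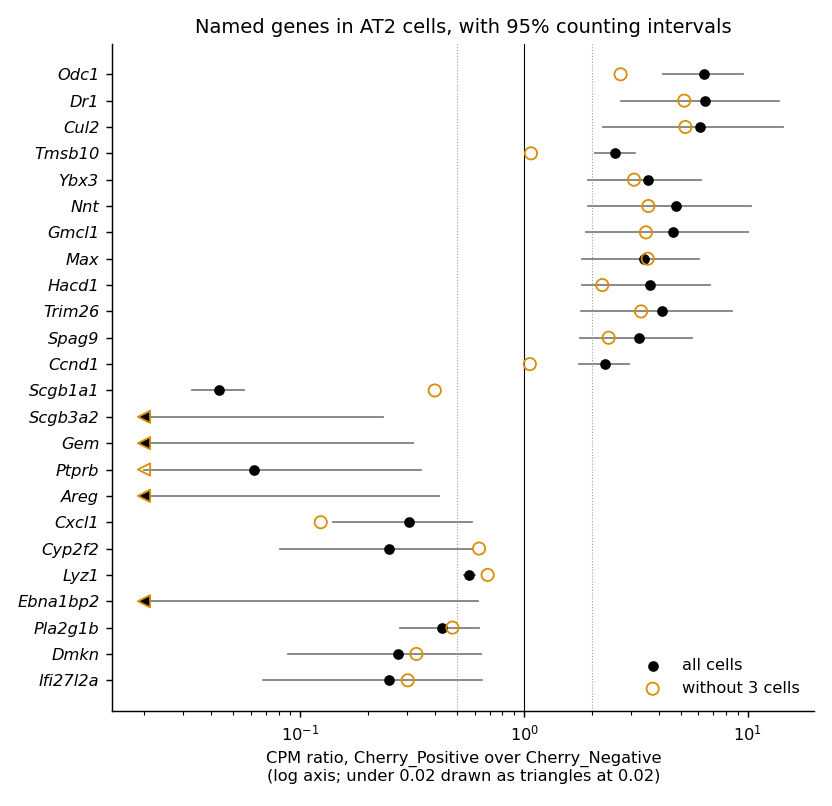
CPM ratio of Cherry_Positive over Cherry_Negative AT2 cells (log axis) for the 12 genes named upwards and 12 named downwards, black points for all cells with 95% counting intervals and open circles without the 3 cells that stood apart. Tmsb10 and Ccnd1 move to 1.07 and 1.06, while Max stays at 3.57.

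Lysozyme split the AT2 cells. Mouse has a pair of lysozyme genes side by side, Lyz1 (chr10:117287797-117292868, minus strand) and Lyz2 (chr10:117277331-117282321, minus strand), which encode bacterial cell wall-cutting enzymes. They are near-identical paralogs, so the division of reads between them is uncertain. The 250 bases before each start are shown because these neighbours differ in single cells (RefSeq, GRCm38.p6), with Sftpa1, which had UMIs in every AT2 cell, beside them. Capitals mark CAAGTG or CACTTG, the core of NKX2-1 sites, TATAAA or TTTATA, the TATA box, and GTAAACA or TGTTTAC, the core of FOXA sites, on either strand.
Lyz1: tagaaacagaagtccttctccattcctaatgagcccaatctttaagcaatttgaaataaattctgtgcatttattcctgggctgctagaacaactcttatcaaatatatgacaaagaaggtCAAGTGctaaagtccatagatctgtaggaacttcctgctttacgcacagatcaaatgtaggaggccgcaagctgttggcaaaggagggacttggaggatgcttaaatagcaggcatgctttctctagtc
Lyz2: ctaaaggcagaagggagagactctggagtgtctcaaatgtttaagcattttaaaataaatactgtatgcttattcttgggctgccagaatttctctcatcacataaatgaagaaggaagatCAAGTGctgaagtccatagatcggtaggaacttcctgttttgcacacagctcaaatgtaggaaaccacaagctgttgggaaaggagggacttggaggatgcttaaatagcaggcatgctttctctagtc
Sftpa1: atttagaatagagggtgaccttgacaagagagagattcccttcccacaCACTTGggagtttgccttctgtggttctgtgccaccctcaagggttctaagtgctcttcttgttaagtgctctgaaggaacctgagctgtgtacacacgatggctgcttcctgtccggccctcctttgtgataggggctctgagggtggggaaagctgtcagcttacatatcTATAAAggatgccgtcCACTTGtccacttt
These windows lie at chr10:117292869-117293118 and chr10:117282273-117282522 on the minus strand and at chr14:41131538-41131787 on the plus strand, counted from the RefSeq starts, which need not equal the gene ends given above. The Lyz1 and Lyz2 windows matched in 200 of 252 aligned columns (79.4%), and each holds the NKX2-1 core 129 bases before the start. That core is found in 11.6% of 32851 promoters of this length, the TATA box in 12.4% and the FOXA core in 3.17%. A match is a run of letters and not a bound site.

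In single Cherry_Negative cells Lyz1 ran from 0 through a median of 4870 to 85114 CPM, and Lyz2 from 0 through 21048 to 92423 CPM. At 1000 CPM or more, 217 cells had both, 176 only Lyz2, 25 only Lyz1 and 8 neither. Of the Cherry_Positive cells 9 had both, 9 only Lyz2 and 1 only Lyz1. Lyz1 was under 1000 CPM in 184 of 426 Cherry_Negative cells (43.2%, 38.4 to 48.1) and 9 of 19 Cherry_Positive cells (47.4%, 24.5 to 71.1), while 37 and 1 cells lay between 500 and 2000 CPM. The shares did not differ beyond their intervals.

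Cells low in Lyz1 had more Lyz2, with a median of 30875 CPM against 14812 CPM in the 212 Cherry_Negative cells with at least 5000 CPM of Lyz1. Over 424 cells Spearman's rho between them was -0.43, a description in which both genes share each cell's total. Summed over the 2 genes, the level ran from 386 through 35589 to 103193 CPM. The summed Lyz1 level was 8092 CPM in Cherry_Positive and 14229 CPM in Cherry_Negative, a ratio of 0.569 (0.536 to 0.603), and 0.687 without the 3 cells.

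**Figure D4:**
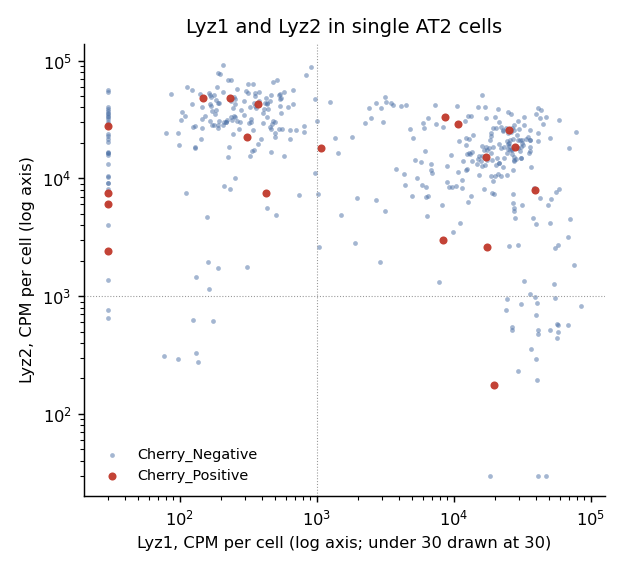
Lyz1 against Lyz2 in single AT2 cells (CPM per cell, both log axes, values under 30 drawn at 30, dotted lines at 1000), red for the 19 Cherry_Positive and blue for the 426 Cherry_Negative cells. In Cherry_Negative 217 cells lie above both lines, 176 only above that of Lyz2 and 25 only above that of Lyz1.

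Few other genes moved with Lyz1. Of 6424 genes 38 were past the fold upwards and 73 downwards in the 212 high against 182 low Cherry_Negative cells, a split made on the values themselves. Sftpc stood at 253300 and 235493 CPM and Lcn2 at 3520 and 3271 CPM. Retnla, a secreted resistin-like protein, stood at 346 and 75.9 CPM (ratio 4.56, 3.72 to 5.64), with UMIs in 21.7% and 17.03% of cells. Il33, an alarm cytokine, stood at 216 and 148 CPM (ratio 1.46, 1.23 to 1.73).

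Among Cherry_Negative AT2 cells 11 had under 50000 CPM of Sftpc, including the 2 rich in Scgb1a1. The other 9, chosen for this after their values were seen, had a median of 7992 UMIs against 8031 in the remaining 415 cells, no UMI of the 4 endothelial and fibroblast rule genes and none of Ptprc. Their marker sum was lower, with a median of 31 against 126, and 5 further cells lay between 50000 and 75000 CPM. Sftpc stood at 26376 against 249866 CPM. Less Sftpc leaves room that raises other genes 1.30-fold in CPM.

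In these 9 cells 702 of 6676 genes were past the fold upwards and 112 downwards, and the genes given here are examples chosen after their values were seen. Krt8, a keratin of simple epithelium, stood at 883 against 185 CPM (ratio 4.78, 3.67 to 6.14), with UMIs in 7 of 9 and 249 of 415 cells. Krt18, its partner, stood at 1139 against 238 CPM (ratio 4.78, 3.80 to 5.96), in 8 of 9 and 289 of 415 cells. Sfn, the epithelial 14-3-3 protein, stood at 665 against 28.8 CPM in 6 and 59 cells. Cldn4, a tight junction claudin, stood at 166 against 0.891 CPM in 4 and 2 cells. The value in the 9 cells rests on 13 Cldn4 UMIs, with 46.2% of them in 1 cell. S100a6, a calcium-binding protein, stood at 4863 against 88.8 CPM in 6 and 137 cells, with 45.8% of the UMIs in 1 cell.

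Other genes were lower in the 9 cells or about level. Lyz2 stood at 2982 against 25368 CPM, Cxcl15 at 768 against 6637 CPM and Scd1 at 742 against 2241 CPM. Apoe, a lipid carrier, had UMIs in 0 of 9 and 257 of 415 cells, and Il33 in 0 and 232. Lcn2 (3340 against 3480 CPM) was about level, and Cd74 stood at 11057 against 7618 CPM. Ager, the receptor RAGE of AT1 cells, stood at 1958 against 1990 CPM, but 66.7% of its UMIs in the 9 cells lay in 1 cell. Its single-cell medians were 1143 and 1766 CPM. Of the Cherry_Positive cells only the one of most UMIs had under 50000 CPM of Sftpc.

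Variation among Cherry_Negative cells was measured on thinned cells by the Fano factor, the variance of a gene's UMIs over their mean, which is near 1 for counting error alone. Over 1726 genes the median was 1.04, and 60 genes (3.48%) were above 2. The highest were Scgb1a1 (669, and 45.2 without the 2 cells rich in it), Sftpc (48.5), Lyz1 (44.9), the nuclear RNA Malat1 (34.5), Gm26870 (32.9, with 35.1% of UMIs in 1 cell) and Lyz2 (26.4). Retnla (20.3), Saa3 (20.3, with 46.2% of UMIs in 1 cell), the metallothionein Mt1 (11.9) and Lcn2 (11.8) followed. Lcn2 had a UMI in 81.6% of thinned cells, with a median of 3 and a highest count of 67.

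Some pairs of genes varied together over the 424 thinned cells, given as descriptions in which genes share each cell's total. Spearman's rho was 0.59 for Sftpa1 and Sftpd, 0.53 for Lcn2 and Chil1 and 0.49 for Cd74 and H2-Aa, but 0.19 for Sftpc and Sftpa1. In 20 of the 424 cells type I interferon response genes had at least 5 UMIs, and 7 of these 20 had at least 2 UMIs of interferon gamma response genes outside that list, against 18 of the other 404 (4.46%). The 20 cells had a median of 16.5 MHC class I UMIs against 5, and of 30 MHC class II UMIs against 19.5.

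Against AT1 cells of the Cherry_Negative library, AT2 cells were higher past the fold in 411 of 10043 genes (4.09%) and lower in 2666 (26.5%), with a median log2 ratio of -0.85. Among the 5688 genes of at least 30 UMIs and 20 CPM these shares were 7.05% and 38.8%. The AT2 and AT1 rules chose the cells, so these values describe the classes. All 17 measured innate defence genes were higher, as were 7 of 8 MHC class II genes, 11 of 16 cholesterol synthesis genes and 10 of 23 lipid synthesis genes. Lcn2 stood at 3421 against 19.3 CPM, Sftpa1 at 31613 against 212 CPM, and S100g, a calcium-binding protein, at 1795 against 14.5 CPM. Cd74 stood at 7565 against 492 CPM (ratio 15.4, 12.7 to 18.9) and Fasn, the fatty acid synthase, at 405 against 14.5 CPM.

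All 18 genes of the AT1 list were lower, among them Pdpn, a membrane glycoprotein of AT1 cells, at 9.98 against 1258 CPM, and Aqp5, a water channel, at 243 against 2602 CPM. For any gene of the AT1 rule (Ager, Rtkn2, Akap5 and Hopx) in this list, the direction follows from the choice of cells. Ager still had UMIs in 419 of 426 AT2 cells at 1961 CPM, against 31432 CPM in AT1 and 91.4 CPM in endothelial cells. The transcription factors divided, with 6 of 16 higher and 4 lower. Etv5 stood at 314 against 9.64 CPM and Cebpa at 225 against 4.82 CPM, while Nkx2-1 (214 against 607 CPM) and the forkhead factor Foxa2 (49.6 against 149 CPM) were lower in AT2 cells.

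Against endothelial and mesenchymal cells together, AT2 cells were higher in 1193 of 12723 genes (9.38%) and lower in 5677 (44.6%), with a median log2 ratio of -0.91. Among the 6625 genes of at least 30 UMIs and 20 CPM they were 8.75% and 48.7%. AT2 cells were higher in 7 of 8 MHC class II genes, with a median of 3.51, and lower in 15 of 17 MHC class I genes, with a median of -2.06. B2m, the light chain of class I molecules, stood at 686 against 4966 CPM, and H2-K1, a class I heavy chain, at 570 against 1965 CPM. Of the interferon gamma response genes 17 of 18 were lower, and of the type I interferon response genes 18 of 19. Irf1, an interferon-induced transcription factor, stood at 55.9 against 329 CPM. Sftpc alone took 24.1% of the UMIs of these AT2 cells, which lowers every other gene in CPM.

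**Figure D5:**
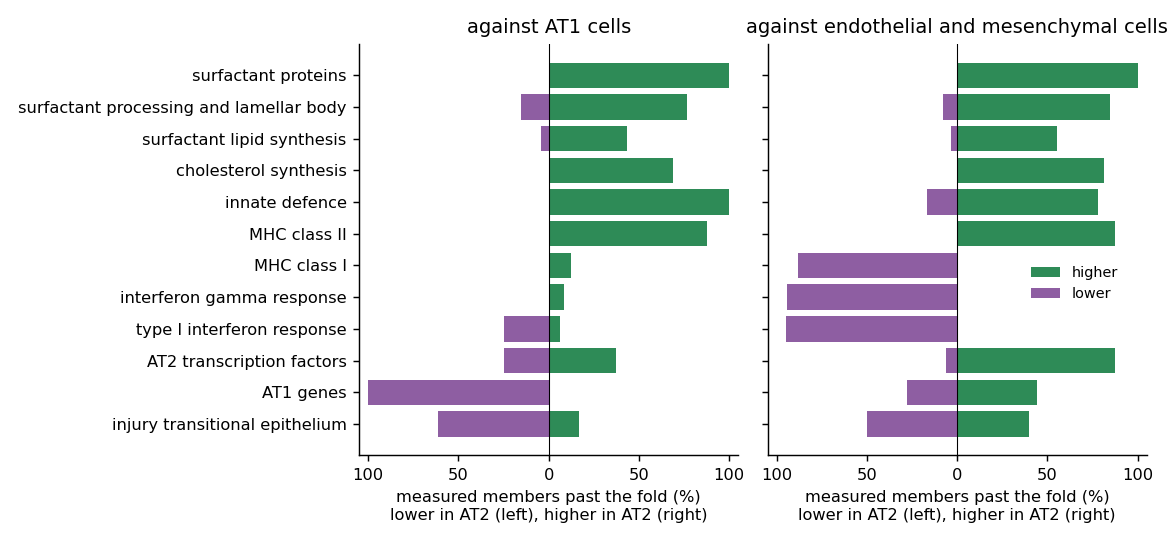
Share of measured members of 12 gene lists (%) past the fold in Cherry_Negative AT2 cells, green to the right for higher and purple to the left for lower, against AT1 cells (left panel) and against endothelial and mesenchymal cells (right panel). MHC class II genes are higher in both panels (7 of 8 genes), while MHC class I genes are lower only in the right panel (15 of 17 genes).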

How the data were processed

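The authors deposited, for each of the 2 libraries, raw UMI counts per gene and barcode from 3' droplet libraries, which were used as deposited. Cell Ranger 2.1.1, Seurat 4.0.2, R 4.0.3 and the mm10 build are listed, without settings, per the submitters' processing notes. No doublets were called or removed here. UMIs were summed over the AT2 cells of each library and divided by their total (CPM), with exact Poisson, binomial and conditional binomial 95% intervals in Python 3.11.15 with scipy 1.17.1. These intervals cover counting error only. Endothelial cells had at least 3 UMIs of Pecam1 and Cdh5, and mesenchymal cells at least 5 of Col1a2 and Col3a1, with at most 2 of the other pair and at most 5 AT2 marker UMIs.

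The 35 gene lists held 503 genes, of which 3 were not in the files. List members had at least 10 UMIs, and 0.5 was added to each count for the log2 ratios. The AT2 rule, the markers and the lists were chosen with earlier results of these data known. Named genes were the markers and list members, the 12 higher and 12 lower genes between libraries and the 10 each way against AT1 cells whose interval bound lay farthest from 1, the 15 highest against endothelial and mesenchymal cells, and the 12 of largest Fano factor. Mitochondrial, ribosomal, haemoglobin and immunoglobulin genes, and between libraries genes at least 10 times higher in another class, were left out. Genes named outside this rule, such as Bst2 and Actb, were chosen after their values were seen. Only the ratio between libraries was tried on simulated data, with counting error alone and no variation from cell to cell. Of 14 genes looked up, 11 had a RefSeq promoter.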

Additional observations from a re-analysis of the deposited data

Results flagged for a closer look

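Cxcl1 differed in direction between cell classes. Its ratio of Cherry_Positive over Cherry_Negative was 0.306 (0.139 to 0.584) in AT2 cells. That value rests on 9 Cherry_Positive UMIs in 4 cells, 66.7% of them in 1 cell. At equal depth no difference in the share of AT2 cells with Cxcl1 was detectable. In mesenchymal cells the ratio was 2.49 (2.32 to 2.68), at 1171 and 470 CPM (7427 and 870 UMIs). With 1 library a group the difference was not tested.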

How the results depend on the processing

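No paired analysis was possible because each group has 1 library, and for the same reason no replicate could be left out. Of 335 ratios of the 24 genes named between the libraries, 289 stayed within their interval or spread, 42 moved and 4 changed direction. A marker sum of at least 10 adds 1 Cherry_Positive cell and turned Scgb1a1 to 7.70, Scgb3a2 to 19.4 and Cyp2f2 to 1.62. It gave list medians of -0.43 for surfactant proteins and -0.14 for innate defence. With 0 UMIs of the endothelial and fibroblast genes, 9 and 306 cells were left (0.508% and 10.9%), Ccnd1 turned to 0.826, and 68 genes were higher and 41 lower. The medians were then -0.14 for surfactant proteins, 0.39 for lipid synthesis, -0.45 for innate defence, -0.13 for MHC class II and -0.39 for MHC class I. With no limit on those genes they were -0.10 for innate defence, 0.056 for MHC class II and 0.77 for MHC class I. Medians for surfactant proteins and innate defence were -0.45 and -0.37 with at least 1000 genes and at most 5% mitochondrial UMIs, -0.063 and 0.012 with cells weighted equally, and -0.41 and -0.37 over UMIs other than surfactant, lysozyme, Cxcl15 and mitochondrial ones. Subtracting 5% free RNA gave -0.39 for innate defence.

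Alternatives added after seeing the data left out cells that stood apart. Without the deepest Cherry_Positive cell 133 genes were higher, and the medians were -0.021 for surfactant proteins, -0.076 for innate defence and -0.12 for MHC class I. Without the 3 cells these were 131, -0.044, -0.075 and -0.14. In Cherry_Positive, with 3 AT1 cells, 128 genes were higher and 129 lower in AT2 than in AT1 cells. With an added count in proportion to the UMIs, the median over all genes came to 0.08. Thinned to 1000 UMIs, 11 of the 12 most variable genes were shared. The 19 Cherry_Positive cells limit every comparison between the libraries. The cause of these shifts was not tested.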
